A study of Homo sapiens with 8 samples.

Results

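The transcription factors ATF4 and DDIT3 (the protein CHOP) and 8 genes that act with them or downstream of them, ATF3, TRIB3, CEBPB, CEBPG, DDIT4, SESN2, PPP1R15A and CHAC1, were followed in PANC-1 cells treated with eupalinolide B (EB), a compound from the plant Eupatorium lindleyanum. They are 10 of the 20263 genes in the deposited table, matched by human Ensembl identifier to their symbols in GENCODE release 44. The 10 genes were chosen from earlier results of this same EB against DMSO comparison. Their levels, fold changes and calls in the fit across all genes are therefore a description, printed with no p-value of their own. Adjusted p-values are printed only for genes outside this set. The lists of those genes were also compiled with earlier results of these data known, and many were named because they were called. Their p-values are therefore no independent evidence. PANC-1 cells are a long-established human line grown from a tumour of the pancreatic duct. They received 10 μM EB for 24 h in 4 libraries, or the vehicle dimethyl sulfoxide (DMSO) in the other 4, which the methods call biological replicates, so the data hold a single cell line, dose and time point.

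Values are TPM, a unit that gives a gene's share of the transcripts in a library, corrected for gene length. TPM have a fixed sum, so a gene that takes more of a library lowers all others, and the depth of reading is unknown. Fewer cells that express a gene and less RNA per cell cannot be told apart in such bulk samples. The 13 mitochondrially encoded genes took 11.6% to 20.3% of the TPM in the EB libraries and 17.0% to 39.0% in the DMSO libraries. The highest share was that of DMSO replicate 4, which was also the lowest DMSO library for 9 of the 10 genes and for 77.0% of all 11725 genes tested. Where this matters, values are also given as nuclear TPM, rescaled to the same sum after the mitochondrial genes were removed. The epithelial keratins KRT8, KRT18 and KRT19 had at least 135.5 TPM in every library, whereas the duct keratin KRT7 and the epithelial adhesion gene EPCAM stayed below 0.4 TPM. The acinar genes PRSS1, CPA1 and CELA3A, the islet hormones INS, GCG and SST, and the leukocyte genes PTPRC and CD3E were listed at 0 in all libraries.

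In the integrated stress response, kinases that sense unfolded proteins in the endoplasmic reticulum, missing amino acids, heme deficiency or double-stranded RNA phosphorylate the initiation factor eIF2. Translation as a whole then slows, while that of the ATF4 message, which carries upstream open reading frames, increases. ATF4 binds DNA with partners of the C/EBP family at a composite element and turns on genes for amino acid supply, further regulators such as CHOP, ATF3 and TRIB3, and PPP1R15A, which returns the phosphatase to eIF2 and closes the loop. RNA sequencing sees the messages only, and neither phosphorylated eIF2 nor the ATF4 protein was measured here.

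The composite element was searched for in the RefSeq promoter windows of the 10 genes (GRCh38.p14, 250 bases before to 50 after each listed start, 17 windows because several genes have more than 1 start). The letters TGATGNAA were sought on both strands. They were found in 3 windows, of ATF3, CEBPG and CHAC1, and in 1.87% of the 13781 windows of tested genes. The longer TGATGCAAT was in none of the 17 windows and in 0.138% of those of tested genes. The cAMP response element letters TGACGTNA, to which ATF factors can bind, were in a single window, that of PPP1R15A, against 4.43%. CCAAT, the letters of a general promoter box, were in 9 of the 17 windows against 34.8%. The 4 sites of the composite and cAMP response elements are shown here because they are the only matches to either motif in these windows. The strand is that of the gene, 5′ to 3′, and capitals mark the motif.

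CHAC1, chr15:40953251-40953280, plus strand, motif on the opposite strand: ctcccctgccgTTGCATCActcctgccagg

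CEBPG, chr19:33374060-33374089, plus strand: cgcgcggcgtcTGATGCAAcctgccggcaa

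ATF3, chr1:212565205-212565234, plus strand: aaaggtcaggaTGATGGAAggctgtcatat

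PPP1R15A, chr19:48872352-48872381, plus strand, the same letters on both strands: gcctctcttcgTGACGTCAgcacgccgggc

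CHAC1 and CEBPG share the core TGATGCAA, which is read on the opposite strand in CHAC1, while the ATF3 site holds TGATGGAA. The motif began 209 bases before the RefSeq start of CHAC1, 42 before the second listed start of CEBPG, 191 before the first listed start of ATF3 and 58 before that of PPP1R15A. In GENCODE the ATF3 site lies outside all 10 transcripts of the gene, the CEBPG site in an intron of 2 of its 3 transcripts, and the CHAC1 and PPP1R15A sites each in the untranslated first part of 1 transcript. A match of letters is not evidence of binding, and elements farther from the start were not searched.

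With EB, 9 of the 10 genes had more transcript, and the tenth, DDIT4, did not change beyond the spread of its libraries. In the fit across all genes (limma on log2(TPM + 1), Benjamini-Hochberg adjustment), 9 of the 10 genes were called higher at an adjusted p under 0.05 and none lower. Of all tested genes 15.2% were called higher and 25.1% lower, and because the genes were picked from this comparison nothing is read from their excess. In 8 of them every EB library lay above every DMSO library, against 16.6% of tested genes. DDIT3, TRIB3 and CEBPB also passed the study's thresholds of p under 0.05 and log fold change above 1.5, read here as an unadjusted p and a log2 scale. In this fit 63 tested genes (0.537%) did so on the higher side, fewer than the study's own count of upregulated genes. The next values below that fold were those of CHAC1 at 1.28 and ATF3 at 1.15. The median log2 fold change of the 10 genes was 1.12, beside −0.11 for all tested genes.

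**Figure D1:**
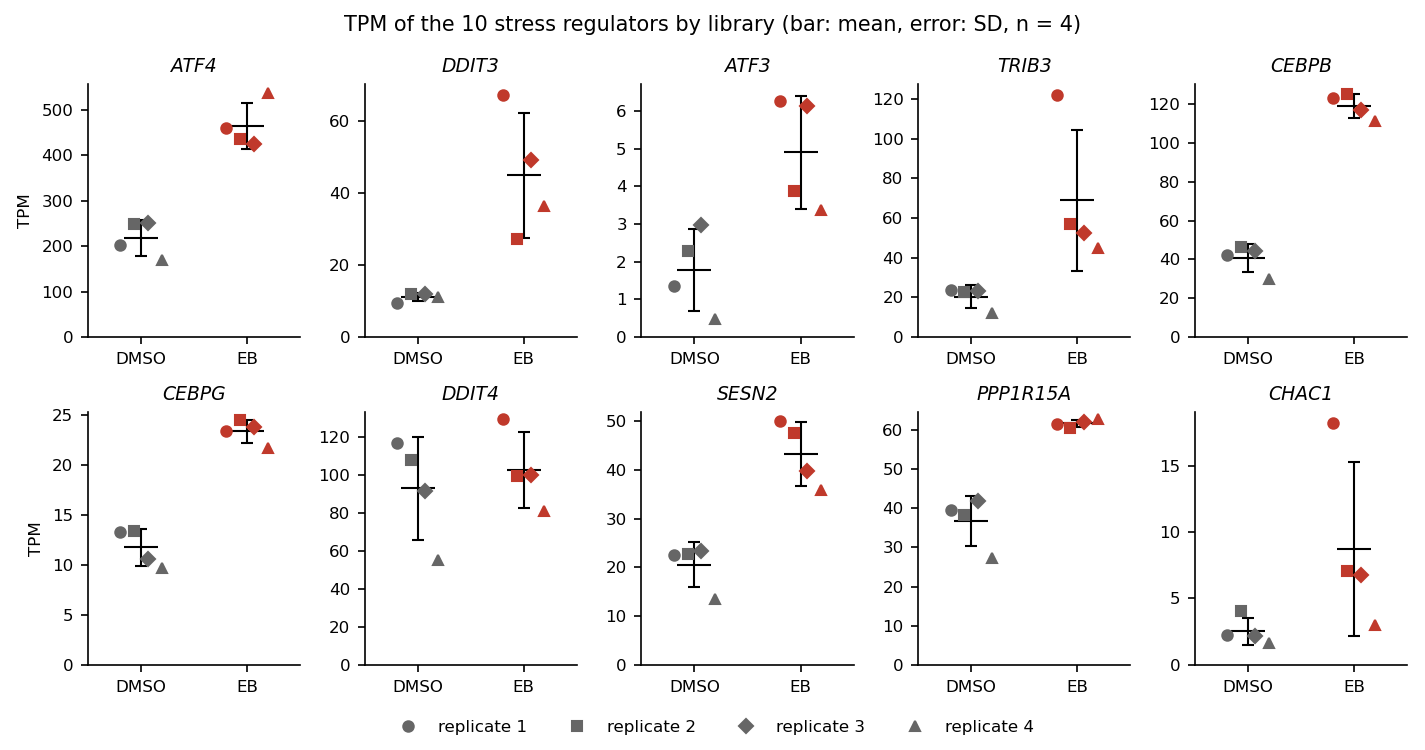
TPM of the 10 genes in each library, on a linear axis that starts at 0 and differs between panels, with DMSO in grey, EB in red, the marker shape giving the replicate number, and the mean and SD (n = 4) in black. The EB libraries of 8 genes lie above all DMSO libraries, CHAC1 overlaps through EB replicate 4 at 3.03 TPM and DMSO replicate 2 at 4.04, and DDIT4 overlaps broadly.

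ATF4 (ENSG00000128272, chromosome 22 of hg38, 39519695 to 39522683, plus strand) was the most abundant of the 10 in both groups. It had 202.9, 248.6, 250.8 and 170.9 TPM in DMSO replicates 1 to 4, and 460.6, 437.0, 424.4 and 537.8 TPM in EB replicates 1 to 4. The lowest EB library was well above the highest DMSO library. The EB mean was 465.0 ± 50.8 TPM and the DMSO mean 218.3 ± 38.6 (SD, n = 4), a ratio of 2.13 and a log2 fold change of 1.10 (standard error, SE, 0.16). With DMSO it already exceeded 95.5% of tested genes. On the nuclear scale the means were 547.9 ± 86.1 and 289.3 ± 34.5 TPM, with no overlap. GENCODE lists 4 processed copies of ATF4 (ATF4P1 to ATF4P4), and how the authors' counting shared reads with them is not given in the sources used here.

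DDIT3 (ENSG00000175197, chromosome 12, 57516588 to 57521737, minus strand), a C/EBP family member known for driving cell death in prolonged stress, had the largest fold change of the 10 as deposited. Its 4 DMSO libraries lay close together, at 9.61, 12.0, 11.9 and 11.1 TPM in replicates 1 to 4. In EB replicates 1 to 4 it had 67.4, 27.2, 49.2 and 36.4 TPM. All EB libraries were above all DMSO libraries, yet the highest and lowest EB library were farther apart than the lowest EB library was from DMSO. The means were 45.0 ± 17.4 and 11.2 ± 1.11 TPM (SD, n = 4), a log2 fold change of 1.85 (SE 0.24) that 32 of the 11725 tested genes exceeded. From being above 35.4% of tested genes with DMSO, DDIT3 moved to above 74.2% with EB.

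Exons of DDIT3 overlap those of MARS1, the methionyl-tRNA synthetase, and of MBD6, both on the opposite strand. Whether counting used the strand is not given in the sources used here, so reads in the shared stretch cannot be assigned. Exons of DDIT3 also overlap those of a protein-coding gene without a symbol, on the same strand and absent from the deposited table. The strand could not separate reads shared with that gene. MARS1 had an EB mean of 91.4 ± 7.41 TPM (SD, n = 4) beside 58.2 ± 13.1 in DMSO (log2 fold change 0.67, SE 0.17, limma adjusted p = 0.0134). MBD6 went the other way, with 23.3 ± 2.92 against 35.8 ± 4.18 TPM and a log2 fold change of −0.60 (limma adjusted p = 0.00760). The difference between DDIT3 and these neighbours was not tested.

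CEBPB and CEBPG encode the C/EBP partners with which ATF4 pairs. CEBPB (chromosome 20, 50190830 to 50192668) had 42.2, 46.5, 44.2 and 30.2 TPM in the DMSO replicates and 123.1, 125.0, 116.8 and 111.3 TPM in the EB replicates. The EB libraries were tightly grouped, with a coefficient of variation of 5.28%. The log2 fold change was 1.54 (SE 0.15). Exons of CEBPB overlap those of the noncoding gene CEBPB-AS1 on the opposite strand, which is absent from the deposited table. CEBPG (chromosome 19, 33373685 to 33382686), whose protein lacks an activation domain, had 13.3, 13.4, 10.6 and 9.69 TPM with DMSO and 23.4, 24.5, 23.7 and 21.7 TPM with EB. Its log2 fold change was 0.94 (SE 0.14), and again the groups did not overlap. CEBPB had 40.8 ± 7.29 TPM with DMSO and CEBPG 11.7 ± 1.89, so that CEBPB was the more abundant partner in both groups.

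ATF3 (chromosome 1, 212565334 to 212620777), an immediate stress factor that often acts as a repressor, was the least abundant of the 10. It had 1.36, 2.30, 2.96 and 0.486 TPM in the DMSO replicates and 6.25, 3.87, 6.12 and 3.36 TPM in the EB replicates. The lowest EB value, 3.36, was just above the highest DMSO value, 2.96. Its log2 fold change of 1.15 (SE 0.30) is on a scale that understates low genes, and with a pseudocount of 0.1 it was 1.61. DMSO replicate 4 had the lowest ATF3 value, and without that library on the nuclear scale the log2 fold change was 0.84.

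TRIB3 and CHAC1, both standard readouts of ATF4 and CHOP activity, varied most among the EB libraries. TRIB3 (chromosome 20, 362835 to 397559) encodes a pseudokinase that binds AKT and ATF4 and restrains the response. It had 24.0, 22.8, 23.0 and 12.0 TPM in the DMSO replicates. In the EB replicates it had 121.7, 57.1, 52.6 and 44.7 TPM, so EB replicate 1 was far above the other EB libraries, all of which were still above DMSO. The log2 fold change was 1.64 (SE 0.32), and 1.33 without EB replicate 1.

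CHAC1 (chromosome 15, 40952962 to 40956512) encodes an enzyme that degrades glutathione. It had 2.24, 4.04, 2.16 and 1.67 TPM with DMSO and 18.2, 7.04, 6.75 and 3.03 TPM with EB. EB replicate 4 lay below DMSO replicate 2, so the groups overlapped. The log2 fold change was 1.28 (SE 0.40), and it ranged from 0.88 without EB replicate 1 to 1.63 without EB replicate 4. CHAC1 lost its call in 8 of the 17 other ways of processing in which it could be tested, among them the removal of any of DMSO replicates 1, 3 and 4 or of EB replicates 2 and 3.

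SESN2 and DDIT4 encode inhibitors of mTORC1, the kinase complex that drives growth when amino acids and growth factors are present. SESN2 (chromosome 1, 28259518 to 28282491) binds leucine and restrains GATOR2. It had 22.5, 22.8, 23.3 and 13.6 TPM in the DMSO replicates and 49.96, 47.4, 39.8 and 35.8 TPM in the EB replicates, without overlap, a log2 fold change of 1.06 (SE 0.19). DDIT4 (REDD1, chromosome 10, 72273919 to 72276036) acts through the TSC complex. It had 116.7, 107.8, 91.3 and 55.3 TPM with DMSO and 129.1, 99.3, 99.7 and 80.8 TPM with EB. The EB values fell almost wholly within the DMSO range, and the log2 fold change was 0.17 (SE 0.24). On the nuclear scale the means were 119.3 ± 19.0 TPM with EB and 120.9 ± 23.0 with DMSO, a log2 fold change of −0.01. Over 18 other ways of processing, listed with the methods, DDIT4 lay between −0.14 and 0.30 and was called in none.

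PPP1R15A (GADD34, chromosome 19, 48872212 to 48876059) is the stress-inducible subunit that directs protein phosphatase 1 to eIF2. With DMSO it had 39.7, 38.3, 41.9 and 27.3 TPM in replicates 1 to 4. With EB it had 61.6, 60.6, 62.0 and 62.8 TPM, in TPM the tightest group of the 10 genes, with a coefficient of variation of 1.48% against a median of 14.6% over tested genes. This lead was lost on the nuclear scale, where the EB values were 69.7, 71.0, 70.6 and 78.8 TPM. There CEBPG (27.4 ± 0.973) and CEBPB (139.6 ± 5.54) spread less relative to their means. The fold change of PPP1R15A was the smallest of the 9, at 0.75 on the log2 scale (SE 0.15). Rescaled to nuclear TPM the libraries still did not overlap, with 72.5 ± 4.21 TPM against 48.5 ± 3.45 (SD, n = 4).

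In TPM, which is corrected for length, the order of mean levels with DMSO was ATF4, DDIT4, CEBPB, PPP1R15A, SESN2, TRIB3, CEBPG, DDIT3, CHAC1 and ATF3. Neighbours whose DMSO libraries overlapped were CEBPB with PPP1R15A, SESN2 with TRIB3, TRIB3 with CEBPG, CEBPG with DDIT3, and CHAC1 with ATF3. With EB the order was ATF4, CEBPB, DDIT4, TRIB3, PPP1R15A, DDIT3, SESN2, CEBPG, CHAC1 and ATF3. There each neighbour from CEBPB down to SESN2 overlapped the next, and CHAC1 overlapped ATF3, while ATF4 stood above and CEBPG apart from both its neighbours. The shifts in rank of the means were those of CEBPB past DDIT4 and of TRIB3 and DDIT3 upward, and they did not hold in every library. TRIB3 was above PPP1R15A in EB replicate 1 alone, at 121.7 against 61.6 TPM. DDIT3 was below SESN2 in EB replicate 2, at 27.2 against 47.4 TPM. CEBPB was below DDIT4 in EB replicate 1, at 123.1 against 129.1 TPM.

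The EB libraries did not order the 10 genes alike. EB replicate 1 was the highest EB library for DDIT3, ATF3, TRIB3, DDIT4, SESN2 and CHAC1, that is for 6 of the 10 genes, and it was the highest for 27.6% of all tested genes. EB replicate 4 was the lowest for 7 of the 10, for 5 on the nuclear scale, and for 50.4% of all tested genes. ATF4 ran otherwise, since it and PPP1R15A were highest in EB replicate 4. The library with the most ATF4 message thus had the least CHAC1, TRIB3, SESN2 and ATF3. In log2(TPM + 1), EB replicate 1 deviated from the EB mean by 1.20 for CHAC1, 0.92 for TRIB3 and 0.65 for DDIT3, but by −0.01 for ATF4. EB replicate 4 had the highest mitochondrial share of the EB libraries and EB replicate 1 the lowest, and the part of this share in these differences was not tested.

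**Figure D2:**
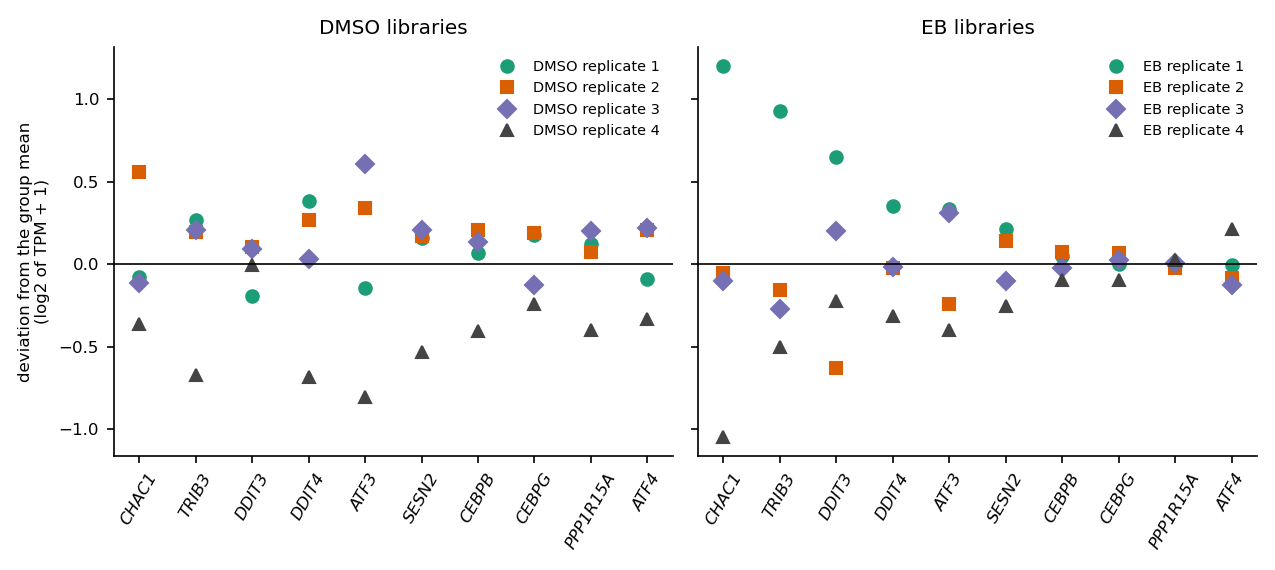
Deviation of each library from its group mean in log2(TPM + 1) for the 10 genes, ordered by the value of EB replicate 1, with DMSO on the left and EB on the right and a marker per replicate. Among the EB libraries CHAC1, TRIB3 and DDIT3 spread widely, from −1.05 to 1.20 for CHAC1, while CEBPB, CEBPG and PPP1R15A hardly spread, and DMSO replicate 4 is low for all genes but DDIT3.

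The coefficient of variation over the EB libraries ran over a wide range without a clear break. It was 1.48% for PPP1R15A, 5.04% for CEBPG, 5.28% for CEBPB, 10.9% for ATF4, 15.2% for SESN2 and 19.5% for DDIT4. It was 30.6% for ATF3, 38.7% for DDIT3, 51.4% for TRIB3 and 74.8% for CHAC1, the last above 99.2% of tested genes. With DMSO, DDIT3 was among the steadier genes at 9.98%, and ATF3 had 61.0% at a level of 1.78 ± 1.08 TPM. The wide spread of DDIT3 was thus seen with EB and not with DMSO in TPM. On the nuclear scale DDIT3 was less steady with DMSO, at 15.0 ± 2.69 TPM, beside 52.4 ± 18.7 with EB. A difference in spread was not tested with 4 libraries a group.

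The 5 tested genes whose profile over the 8 libraries was most like that of ATF4 were TMEM179B, PHLDA2, CDC45, H3C1 and FOSB. Likeness was the root mean square difference of log2(TPM + 1) after centring on the DMSO mean, which was 0.11 to 0.13 for these genes. H3C1 and FOSB had DMSO means under 1 TPM, and H3C1 has near-identical histone copies. In TPM the mean of H3C1 went from 0.275 to 1.83 and that of FOSB from 0.712 to 3.03. These are larger ratios than that of ATF4, and the added 1 in log2(TPM + 1) shrinks them at such low levels. The likeness of these 2 genes to ATF4 therefore holds on this scale only. For DDIT3 the nearest were PSAT1, SLC3A2, TM4SF1, SAT1 and OSGIN1, at 0.31 to 0.34. PSAT1, of serine synthesis, and SLC3A2, the heavy chain of amino acid transporters, are known ATF4 targets. No tested gene came as near to DDIT3 as these 5 genes came to ATF4.

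Of 12 close paralogs of these genes, 10 were tested. Among them TRIB1 alone was called higher, 3 were called lower and 6 were not called, and the median log2 fold change was −0.10, close to that of all genes. On the nuclear scale none was higher and 4 lower, and with quantile normalization 3 were higher and 3 lower. Of all tested genes 1451 were higher and 4954 lower of 11967 on the nuclear scale (median −0.28). With quantile normalization 2792 were higher and 2759 lower of 11725. ATF5, the nearest relative of ATF4 and itself a stress factor, had 99.0 ± 28.2 TPM in EB against 115.0 ± 28.0 in DMSO (SD, n = 4), not past the threshold (log2 fold change −0.22, limma adjusted p = 0.488). CEBPD fell from 18.4 ± 3.60 to 5.35 ± 1.60 TPM (log2 fold change −1.63, SE 0.21, limma adjusted p = 0.000514), while CEBPA, at 26.1 ± 5.14 against 19.8 ± 5.38 TPM, was not past the threshold (limma adjusted p = 0.166), although it was called higher with median-ratio scaling (0.53), quantile normalization (0.52) and a replicate block (0.41).

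In the tribbles family TRIB2 fell from 17.0 ± 3.16 to 6.88 ± 0.487 TPM (log2 fold change −1.17, limma adjusted p = 0.000562). TRIB1 was higher by 0.57 on the log2 scale (limma adjusted p = 0.0130), a call that was lost on the nuclear scale at 0.43. SESN3 fell from 5.11 ± 0.817 to 1.56 ± 0.290 TPM (log2 fold change −1.25, limma adjusted p = 0.000308), and SESN1 had a log2 fold change of −0.10 that was not called, against −0.27 and called lower on the nuclear scale. PPP1R15B, the constitutive partner of the eIF2 phosphatase, had 9.15 ± 1.69 TPM with EB and 9.97 ± 2.24 with DMSO (log2 fold change −0.10, limma adjusted p = 0.689). CHAC2 was at 0.13 and JDP2, the relative of ATF3, at 0.41, and neither was called as deposited. With quantile normalization CHAC2 was called higher at 0.34. CEBPE was listed at 0 in all libraries and DDIT4L stayed under 0.4 TPM. The difference between a gene and its paralog was not tested.

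**Figure D3:**
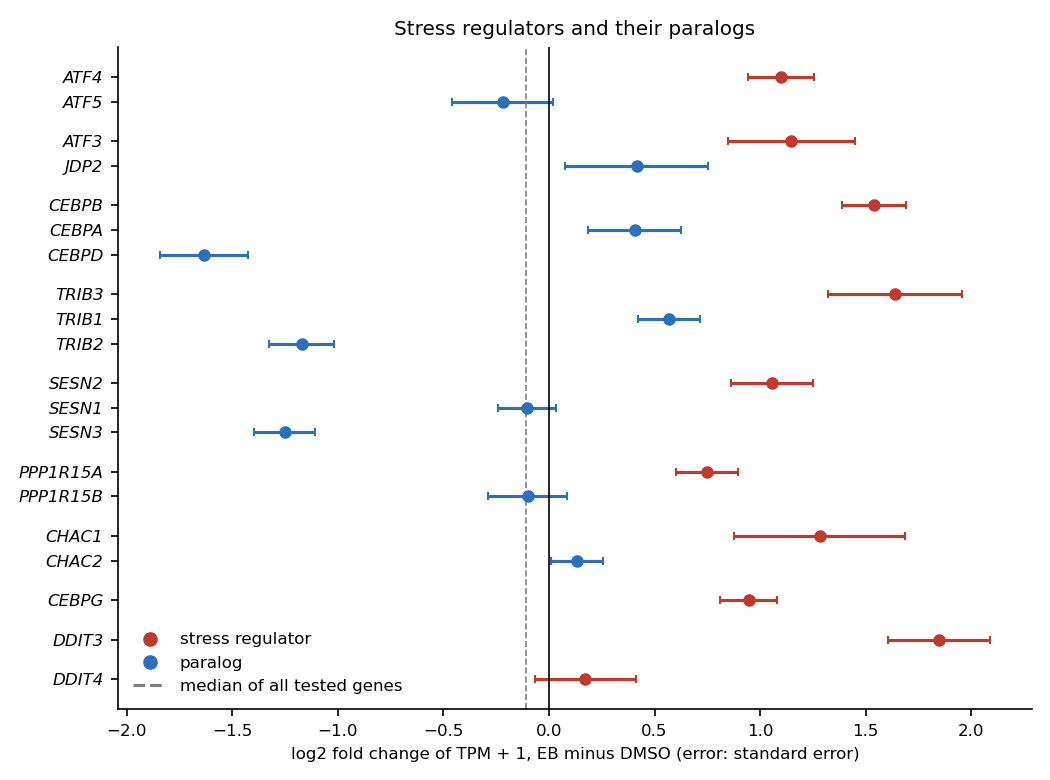
Log2 fold change of TPM + 1 (EB minus DMSO, horizontal axis) with its standard error for the 10 genes in red and their tested paralogs in blue, with the median of all tested genes as a dashed line at −0.11. Of the red points 9 lie between 0.75 and 1.85, DDIT4 at 0.17, and the blue points between −1.63 and 0.57.

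Upstream of ATF4, none of the 4 eIF2 kinases was called higher at the message level, and EIF2AK2 and EIF2AK4 were called lower. EIF2AK2 (PKR, the sensor of double-stranded RNA) fell from 21.4 ± 1.96 to 11.8 ± 3.07 TPM (SD, n = 4; log2 fold change −0.83, SE 0.17, limma adjusted p = 0.00484), a call that ended at −0.30 when the trend on transcript length was removed. EIF2AK4 (GCN2, the sensor of uncharged tRNA) fell from 35.5 ± 6.83 to 20.1 ± 1.89 TPM (log2 fold change −0.78, limma adjusted p = 0.00510). EIF2AK3 (PERK, in the endoplasmic reticulum) had 3.75 ± 0.628 TPM with EB and 5.05 ± 0.541 with DMSO, not past 0.05 (limma adjusted p = 0.0621), although it was called lower on the nuclear scale at −0.52. EIF2AK1 (HRI, the heme sensor that also reports mitochondrial stress) was by far the most abundant, with 131.3 ± 15.9 TPM against 144.6 ± 8.73, not past the threshold (log2 fold change −0.14, limma adjusted p = 0.389).

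Together with activators and inhibitors of the kinases these genes form a list of 11, of which 6 were called lower and none higher, with a median log2 fold change of −0.54 beside −0.11 for all tested genes. The list mixes directions of action, since IMPACT inhibits GCN2 and DNAJC3, at 0.21 and not called as deposited, inhibits PKR and PERK. DNAJC3 was the gene of the list that was called higher with median-ratio scaling, with quantile normalization and with the length trend removed (0.33 to 0.54). IMPACT fell most, from 18.1 ± 2.19 to 6.76 ± 1.12 TPM (log2 fold change −1.31, limma adjusted p = 0.000253). OMA1, the mitochondrial protease that cleaves DELE1 to activate HRI, fell from 22.2 ± 2.80 to 13.4 ± 1.21 TPM (log2 fold change −0.69, limma adjusted p = 0.00322), a call lost with quantile normalization at −0.53, and DELE1 fell by 0.62 on the log2 scale. With the length trend removed 4 genes of the list were called lower and 1 higher, with a median of −0.30. Of all 11698 genes tested in that way 2518 were called lower and 2704 higher, with a median of 0.01.

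On the list of eIF2, its exchange factor eIF2B and the phosphatase, 6 of 16 tested genes were called higher and 1 lower, with a median of 0.02. This balance depended on the scaling, with 4 higher and 3 lower on the nuclear scale (median −0.16) and 8 higher and none lower with median-ratio scaling. Of all tested genes 1451 were higher and 4954 lower of 11967 on the nuclear scale. With median-ratio scaling 3152 were higher and 3017 lower of 11742. EIF2S2, the beta subunit of eIF2, rose from 116.7 ± 7.26 to 185.5 ± 8.31 TPM (log2 fold change 0.67, SE 0.11, limma adjusted p = 0.00178). EIF2B3 rose by 0.75 and EIF2S1, the subunit that the kinases phosphorylate, by 0.53, and MCTS1, which helps initiation without eIF2, by 0.51. PPP1CB, a catalytic subunit of the phosphatase, was called lower at −0.38 and PPP1CA higher at 0.38, and each lost its call in 8 of the 18 other ways of processing. PPP1CB was at −0.12 with the length trend removed and at −0.25 with median-ratio scaling, and 6 of its losses came from leaving out a single library. PPP1CA was at 0.20 on the nuclear scale and at 0.16 with quantile normalization.

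Of the 48 other transcription factors with a basic leucine zipper, the family to which ATF4, DDIT3, ATF3, CEBPB and CEBPG belong, 42 were tested. Of these, 7 were called higher and 10 lower, and the list median was −0.11, equal to that of all tested genes. On the nuclear scale 7 were higher and 18 lower, beside 1451 and 4954 of all 11967 genes tested on that scale. Without DMSO replicate 4 there were 7 and 17, beside 1824 and 4218 of 11589. BATF3, from 0.621 ± 0.245 to 8.94 ± 0.815 TPM (log2 fold change 2.62), and FOSL1, from 85.6 ± 8.65 to 397.1 ± 84.9 TPM (log2 fold change 2.18), had larger fold changes than DDIT3, and FOSB and FOS were at 1.24 and 1.22. BATF3 and FOSB, both among the 7, stayed under 1 TPM in every DMSO library. They passed the filter only through their EB libraries, so their calls are no independent support. DBP (−1.60), ATF2 (−1.42) and NFE2L3 (−0.99) fell beside CEBPD.

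Downstream, 19 of 33 tested genes on a list of amino acid targets of ATF4, for synthesis, transport and tRNA charging, were called higher and 2 lower, with a median log2 fold change of 0.62. Of all 11725 tested genes 1785 were higher and 2944 lower. On the nuclear scale 18 of 34 list genes were higher and 4 lower (median 0.46), beside 1451 and 4954 of 11967. With median-ratio scaling 24 of 34 were higher and 3 lower (median 0.77), beside 3152 and 3017 of 11742. This list was compiled with earlier results of these data known and is not independent evidence of its direction. ASNS, asparagine synthetase, rose from 39.2 ± 6.80 to 232.8 ± 14.9 TPM (log2 fold change 2.55, limma adjusted p = 9.81e-06), a larger fold change than that of any of the 10 regulators. PHGDH, SLC3A2 and PSAT1 followed at 2.17, 1.93 and 1.64. WARS1, the tryptophanyl-tRNA synthetase, which is also induced by interferon, fell from a DMSO range of 348.6 to 465.4 TPM to an EB range of 140.1 to 200.2 (log2 fold change −1.16, limma adjusted p = 0.000644). The other gene called lower was the amino acid transporter SLC38A2, at 77.2 ± 32.0 TPM in EB against 150.5 ± 51.5 in DMSO. Its log2 fold change was −0.95 (limma adjusted p = 0.0379), and the groups overlapped. SLC7A11, the cystine transporter, did not reach the filter as deposited, with 0.898 to 1.59 TPM in the EB libraries and 0.165 to 0.334 in the DMSO libraries. EB replicate 1 was the highest EB library for 15 of these 33 genes and EB replicate 2 for 14. Of all 11725 tested genes they were the highest for 3235 and 5189.

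The list of secreted, survival and death targets of ATF4 and CHOP held 23 genes, of which 18 were tested, 5 called higher and 3 lower, with a median of 0.22. Of all 11725 tested genes 1785 were higher and 2944 lower. On the nuclear scale 6 of 19 list genes were higher and 4 lower (median 0.12), beside 1451 and 4954 of 11967. With median-ratio scaling 7 of 18 were higher and 2 lower (median 0.34), beside 3152 and 3017 of 11742. GADD45A, a growth arrest gene, rose from 27.8 ± 6.02 to 108.1 ± 12.0 TPM (log2 fold change 1.94, limma adjusted p = 7.17e-05). NIBAN1 rose by 1.38 and CDKN1A by 1.34, the latter also a p53 target. TXNIP, an inhibitor of thioredoxin, fell from 78.6 ± 6.53 to 29.7 ± 1.80 TPM (log2 fold change −1.37), and KLHL24 fell by 1.04 on the log2 scale. ERO1B, an endoplasmic reticulum oxidase, was called lower at −0.38 but lost its call in 8 of 17 other ways of processing, and with the length trend removed it was at 0.088. The tested death genes linked to CHOP did not pass the test as deposited, and several lay near the threshold. TNFRSF10A, the receptor DR4, had a log2 fold change of 0.55 (limma adjusted p = 0.0557), TNFRSF10B, the receptor DR5, −0.12, BBC3 −0.80 (limma adjusted p = 0.0563), PMAIP1 0.34 (0.0551, groups without overlap) and BCL2L11 −0.36. Under some other ways of processing BBC3 was called lower (7 of 18, for instance −0.99 on the nuclear scale), TNFRSF10A higher (6 of 18, 0.74 with quantile normalization), PMAIP1 higher (5 of 17, 0.65 with quantile normalization) and TNFRSF10B lower (1 of 18, −0.39). GDF15, a secreted stress factor, was at −0.06, or −0.34 and called lower with the length trend removed, and FGF21 was listed at 0 in all libraries but 1.

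The ATF6 and IRE1 branches of the endoplasmic reticulum stress response had 4 of 23 tested genes called higher and 3 lower, with a median log2 fold change of 0.05. On the nuclear scale 3 were higher and 6 lower (median −0.12), beside 1451 and 4954 of all 11967 genes tested on that scale. With the length trend removed 10 were higher and 4 lower, beside 2704 and 2518 of 11698. SDF2L1, an endoplasmic reticulum cochaperone, rose from 29.8 ± 8.34 to 74.5 ± 13.8 TPM (log2 fold change 1.32, limma adjusted p = 0.00210), and HERPUD1, which responds to ATF4 as well, rose by 0.71. MANF and PDIA6, both proteins of the endoplasmic reticulum lumen, were called higher at 0.56 and 0.39. MANF lost its call with the length trend removed (0.29), and PDIA6 on the nuclear scale (0.21), with quantile normalization (0.16) and without EB replicate 3 (0.38). SEL1L, of the degradation complex, fell from 7.76 to 3.58 TPM in the mean (log2 fold change −0.93, limma adjusted p = 0.00210). MBTPS1 (−0.62, limma adjusted p = 0.0202) and MBTPS2 (−0.56, limma adjusted p = 0.0472) were also called lower, with groups that overlapped. HSPA5 (BiP), the main chaperone of this response, had a log2 fold change of 0.24, DNAJB9, an XBP1 target, of −0.01 and XBP1 of 0.40, and none was called as deposited, although the HSPA5 libraries of the groups did not overlap. HSPA5 was called higher with median-ratio scaling (0.37) and with the length trend removed (0.55). Gene-level TPM do not show the splicing of XBP1.

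Of the genes that control mTORC1, beside SESN2 and DDIT4, 30 were tested, 2 called higher and 4 lower, with a median of −0.04. These counts moved with the scaling, to none higher and 10 lower on the nuclear scale (median −0.21), 1 and 10 without DMSO replicate 4, and 8 and 7 with median-ratio scaling. All tested genes moved too, with 1451 higher and 4954 lower of 11967 on the nuclear scale (median −0.28). There were 1824 and 4218 of 11589 without DMSO replicate 4, and 3152 and 3017 of 11742 with median-ratio scaling. As deposited, SESN3, MTOR (−0.81), TSC2 (−0.76) and TSC1 (−0.67) were the lower genes of the list, and for MTOR and TSC1 the groups overlapped. With the length trend removed TSC2 (−0.27), TSC1 (−0.18) and MTOR (−0.31) lost their calls, and MTOR lost it in 9 of the 18 other ways of processing, 6 of them with a single library left out. LAMTOR3 (0.71) and LAMTOR1 (0.50), scaffold subunits of the lysosomal anchor, were the higher ones. LAMTOR1 lost its call in 11 of the 18 other ways of processing, among them leaving out any 1 DMSO library or EB replicate 2 or 4, and LAMTOR3 in 3, on the nuclear scale and without EB replicate 3 or 4.

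**Figure D4:**
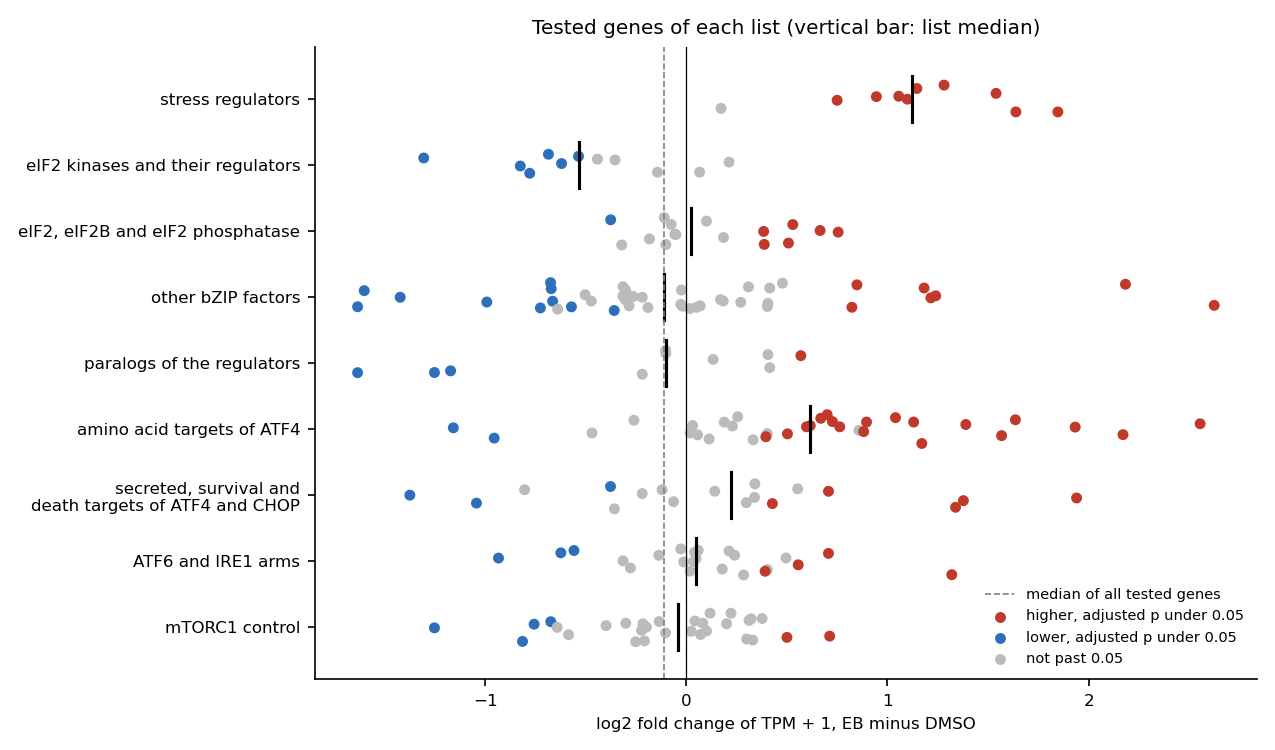
Log2 fold change of TPM + 1 (EB minus DMSO, horizontal axis) of every tested gene of each list (rows), coloured by call at a limma adjusted p under 0.05, with the list median as a vertical bar and the median of all tested genes dashed. The list of amino acid targets has 19 of 33 genes higher, and the eIF2 kinases and their regulators have 6 of 11 lower. The 10 regulators in the top row have a median of 1.12, and the other 6 lists have medians of −0.11 to 0.22.

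The direction of the 9 genes held under every other way of processing in which they could be tested, while their size moved. Over these the log2 fold change was 0.85 to 1.23 for ATF4, 1.51 to 2.06 for DDIT3, 1.32 to 1.67 for CEBPB, 0.78 to 1.12 for CEBPG, 0.80 to 1.18 for SESN2 and 0.53 to 0.88 for PPP1R15A. Without DMSO replicate 4 and on the nuclear scale 8 of the 10 were called higher, with CHAC1 and DDIT4 not called. Without EB replicate 1 on the nuclear scale, an alternative chosen after seeing the data, 9 were called. As deposited, the log2 fold change of DDIT4 was above that of 68.6% of tested genes.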

How the data were processed

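The deposited table holds TPM of 20263 genes in 8 libraries, set to a fixed sum in each by the authors, without read counts, so the depth per library and its precision are unknown. Per the methods, CLC Genomics Workbench did the trimming, mapping and normalization, with HISAT2 and StringTie among further tools. The submitters' processing notes name GRCm38, mm10 and hg38, and all identifiers are human. Of these, 20148 matched a symbol in GENCODE 44. Columns headed C were read as DMSO and H as EB, the number as the replicate. TPM were used as deposited. Genes that reached 1 TPM in 4 or more libraries entered the test on log2(TPM + 1) by limma 3.58.1 in R 4.3.3 with Benjamini-Hochberg adjustment over all genes tested.

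The 10 genes and the lists, compiled by hand from general knowledge, were chosen with earlier results of these data known. Named are the 10 genes, up to 4 called genes a direction and list with groups that do not overlap, all tested paralogs and eIF2 kinases, and the 5 profiles most like ATF4 and DDIT3. Others (DELE1, PPP1CA, MTOR, TSC1, MARS1, MBD6, SLC7A11, SLC38A2, MBTPS1, MBTPS2, FGF21, HSPA5, DNAJB9, XBP1, GDF15, DNAJC3 and the death genes) were named after their values were seen. The 18 other ways of processing were no filter, a filter at 5 TPM, a pseudocount of 0.1, quantile normalization, median-ratio scaling, nuclear genes only, removal of a spline (5 degrees of freedom) on transcript length, an intensity trend, a replicate block, each library left out, and nuclear genes only without DMSO replicate 4. The fit was tested on simulated data. Promoter sequences are from RefSeq on GRCh38.p14. Plots were drawn with matplotlib 3.10.9.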

Additional observations from a re-analysis of the deposited data

Results flagged for a closer look

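With 4 libraries a group, a library was singled out where its gap to the nearest of the others took more of the group's range than Dixon's 95% critical value, which chance gives in about 1 of 20 groups. Of 146 groups of named genes 10 were singled out, 5 of them in DMSO replicate 4, the library with the highest mitochondrial share. SLC38A2, MBTPS1 and MBTPS2 were not screened in this way. Nor were the cell type markers, the genes that were not tested, and the profile matches TMEM179B, PHLDA2, CDC45, H3C1, TM4SF1, SAT1 and OSGIN1.

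TRIB3 stood out at both ends. DMSO replicate 4 had 12.0 TPM, with the other DMSO libraries between 22.8 and 24.0, and it stood out on the nuclear scale as well (gap over range 0.972). EB replicate 1 had 121.7 TPM, with the other EB libraries between 44.7 and 57.1, also on the nuclear scale (0.868). SESN2 had 13.6 TPM in DMSO replicate 4 against 22.5 to 23.3 in the others, and on the nuclear scale this gap was no longer past the limit (0.669).

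KLHL24 had 12.9 TPM in DMSO replicate 4 (others 16.6 to 17.3) and TSC2 had 33.8 TPM there (others 47.9 to 49.9), and neither stood out on the nuclear scale. MTOR had 35.1 TPM in DMSO replicate 4 (others 54.4 to 55.7), and XBP1 had 85.6 TPM in EB replicate 1 (others 43.9 to 50.5), both below the limit on the nuclear scale. PPP1CB had 35.4 TPM in EB replicate 4 (others 38.7 to 39.1). FOSB had 3.39 TPM in EB replicate 4 (others 2.89 to 2.94), and BATF3 had 0.984 TPM in DMSO replicate 1 (others 0.449 to 0.527).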

How the results depend on the processing

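Of the 10 genes, 9 were called higher as deposited, and 7 to 9 over 18 other ways of processing. The count of 7 came with a TPM of at least 5, where ATF3 and CHAC1 were not tested. Leaving out a library gave 8 or 9. The balance of calls over all genes depended on the scaling. As deposited 1785 were higher and 2944 lower (37.7% higher), against 3152 higher with median-ratio scaling (51.1%), 2792 with quantile normalization (50.3%) and 2704 with the length trend removed (51.8%). Nuclear genes only gave 4954 lower (22.7% of calls higher), 4966 lower when DMSO replicate 4 was left out too and 4558 lower when EB replicate 1 was, the last chosen after seeing the data. The median over all genes was then −0.28, and 0.01 to 0.02 under the first 3. Leaving out a library gave 1950 (without DMSO replicate 3) to 4218 (without DMSO replicate 4) genes lower. Of 170 tested list genes 43 were higher and 30 lower. Lower list genes numbered 53 on the nuclear scale, 56 also without DMSO replicate 4, 49 without EB replicate 1 instead, and 21 to 50 with a library left out (50 without DMSO replicate 4). ERO1B, called lower as deposited, was at 0.088 and not called with the length trend removed. The cause was not tested.

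Whether equal replicate numbers pair the libraries of the groups is not given in the sources used here. The correlation of same-numbered deviations across genes was 0.18, 0.05, −0.09 and 0.28 for replicates 1 to 4. DMSO replicates 1 and 4 matched the EB library of their own number best, and DMSO replicates 2 and 3 did not. In both groups replicate 1 had the lowest mitochondrial share and replicate 4 the highest. Pairing was not tested, and the main fit leaves it out. A replicate block gave 5756 called genes against 4729, 89 list genes against 73, and the same 9 of the 10 genes. TPM hold no depth, so counting error of low genes such as ATF3 and CHAC1 is unknown.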
